A study of Homo sapiens with 30 samples.

Results

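The genes described here encode the collagen chains, the laminin chains, the lysyl oxidases and the numbered integrin chains. They were selected by gene symbol, with earlier results of these data known. Of the 60107 genes in the count table, 80 met the rule, and all 80 had a row. They were 44 collagen genes, 12 laminin genes, 5 lysyl oxidase genes (LOX and LOXL1 to LOXL4) and 19 integrin genes with a number after ITGA or ITGB. Integrin chains whose symbols carry a letter, such as ITGAV, lay outside the rule and were followed as a separate list.

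Collagens are secreted rod-shaped proteins built from 3 wound chains, and each collagen type needs its own set of chains. Laminins are cross-shaped proteins of an alpha, a beta and a gamma chain (LAMA, LAMB, LAMC) that form, together with type IV collagen, the sheet called the basement membrane. Lysyl oxidases are copper enzymes that cross-link collagen and elastin outside the cell. Integrins are surface receptors of 1 alpha and 1 beta chain that hold the cell to these proteins and signal into it. In the normal liver most fibrillar collagen comes from stellate cells rather than from hepatocytes.

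All samples were cultures of HepG2, an established human liver tumour cell line with many hepatocyte features, so every value comes from a single line. Cells were transfected with an oligonucleotide that blocks a microRNA (an inhibitor) or that imitates one (a mimic), or with the matching control. From 24 h after transfection they received Sorafenib, a multikinase inhibitor used in advanced liver cancer, at 10 µM, or its solvent dimethyl sulfoxide (DMSO). Treatment lasted 6 h after the inhibitors, which were directed at miR-200c-3p (I200c) or were a control oligonucleotide (IC). It lasted 24 h after the mimics, which imitated miR-222-5p (M222), imitated miR-512-3p (M512) or were a control oligonucleotide (MC). Each transfection was paired with DMSO and with Sorafenib, which gave 10 groups of 3 libraries. Time and the class of oligonucleotide changed together between the experiments and cannot be told apart. The study calls its replicates independent and the labels do not say how the cultures were made, so the p-values measure the spread between these libraries.

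Messenger RNA was measured with QuantSeq 3′ FWD libraries. These take a single fragment close to the polyadenylated end of a messenger, so that a count does not grow with transcript length. Levels of different genes are set side by side on that basis. A count also depends on the annotated 3′ end of the gene, and the annotation and strand setting of the counting are not stated. A gene without counts may therefore not be silent. Libraries held 3938764 to 9657063 counts. Levels are given as CPM (counts scaled to a library of 1e+06) after TMM scaling over the 30 libraries, and a count of 0 allows up to 0.311 to 0.762 CPM, taking 3 counts as the limit and counting error only. The 80 genes together held 0.0821% to 0.145% of the counts of a library. Of the 13 hepatocyte markers 13 had a median of 10 CPM or more. Among 10 fibroblast and stellate cell markers, DCN, LUM, POSTN, THY1 and FAP had no count in any library, while the list as a whole summed to 118.6 to 280.6 CPM, most of it from ACTA2 and TAGLN. Of 8 endothelial markers 4 had no count, VWF and KDR among them (sums of 1.6 to 29 CPM), and of 8 leukocyte markers PTPRC had 1 count in all and CD3E none (sums of 161 to 337.6 CPM, mostly LYZ and CD74). In such bulk samples fewer cells and less RNA per cell cannot be told apart.

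Most of the matrix genes had few or no counts in these cells. Of the 80, 20 had no count in any library, 6 had 1 to 3 counts over all libraries, and 54 had a mean below 1 CPM. Another 12 had a mean of 1 to 10 CPM and 14 reached 10 CPM or more. Expression was concentrated in a few genes of each class. The 3 highest genes carried 87.9% of the collagen total, 93.3% of the laminin total, 77.6% of the integrin total and 94.2% of the lysyl oxidase total.

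**Figure D1:**
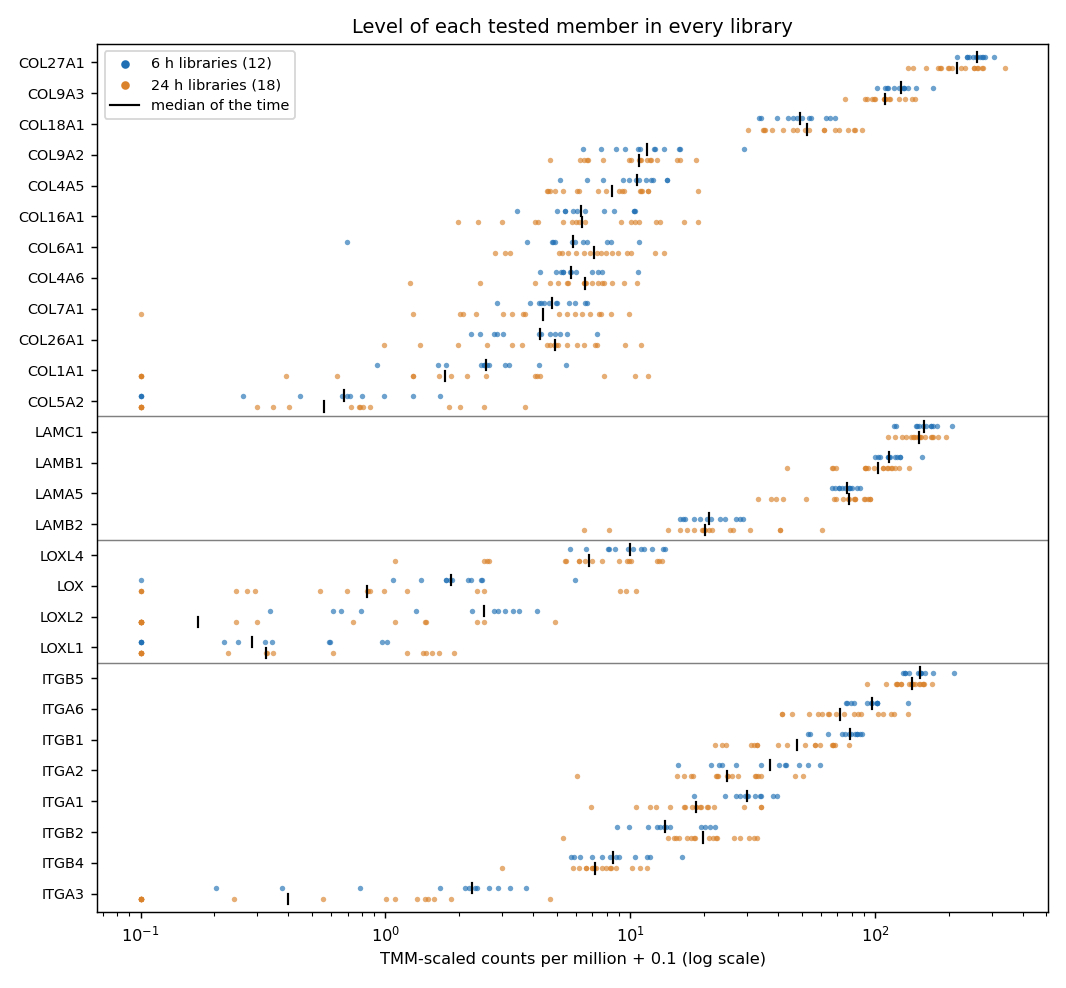
Level of the 28 genes that passed the filter on low counts in either experiment, with 1 point per library (blue for 6 h, orange for 24 h), the median of each time as a black bar and the x axis in CPM + 0.1 on a log scale. COL27A1, LAMC1 and ITGB5 lead their classes, while COL1A1, COL5A2, COL7A1, LOX, LOXL1, LOXL2 and ITGA3 fall to 0 in some libraries.

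The collagen profile of the line was that of minor collagens. COL27A1, a fibrillar collagen best known from cartilage, was the highest gene with a mean of 235.4 CPM over the 30 libraries (136.5 to 339.1 CPM). COL9A3 and COL9A2, chains of the cartilage collagen IX, followed at 116.8 CPM (75.3 to 171.8) and 11.3 CPM (4.61 to 29.1), while their partner COL9A1 had 4 counts in all. COL18A1, the basement membrane collagen whose tail is released as endostatin, averaged 53.5 CPM (30.2 to 88.3). Collagen IX was therefore measured without 1 of its chains, whereas COL27A1 and COL18A1 each encode the single chain of their collagen type.

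The classical collagens also had few or no counts for partner chains. COL1A1, a chain of collagen I, averaged 2.83 CPM (0 to 11.7), and its partner COL1A2 had no count. COL6A1 averaged 6.62 CPM, with COL6A2 at 0 and COL6A3 at 6 counts in all. Of the type IV chains, COL4A5 (9.21 CPM) and COL4A6 (6.18 CPM), which are neighbours on chromosome X, were present in every library, COL4A2 averaged 0.561 CPM, and COL4A1 had no count. COL3A1 had 3 counts in all. COL16A1, COL7A1 and COL26A1 made up the rest of the tested collagens, at 7.65, 4.69 and 4.58 CPM.

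The laminins showed 1 complete set. LAMC1 (153.8 CPM), LAMB1 (105.8 CPM) and LAMA5 (73 CPM) were present in every library and LAMB2 followed at 22.8 CPM, which is the chain set of the laminins with an alpha chain from LAMA5. LAMA1 had 2 counts over all libraries, and LAMA3 averaged 0.53 CPM. LAMC1 was among the steadiest of the genes, with its lowest library at 113 CPM and its highest at 205.8 CPM. Among the lysyl oxidases LOXL4 was the highest at 8.25 CPM, and LOX, LOXL2, LOXL1 and LOXL3 averaged 2.11, 1.29, 0.449 and 0.27 CPM.

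The integrins were led by a vitronectin receptor chain. ITGB5, the beta chain that pairs with ITGAV to bind vitronectin, was the highest at 143.6 CPM, and ITGAV, outside the rule, had a median of 35.5 CPM. ITGA6, the alpha chain of laminin receptors, averaged 84.9 CPM, and its beta partners ITGB1 and ITGB4 averaged 58.5 and 8.1 CPM, while ITGA3 and ITGA7, alpha chains of other laminin receptors, averaged 1.26 and 0.235 CPM. The collagen-binding alpha chains ITGA2 and ITGA1 stood at 30.2 and 23.5 CPM, while ITGA10 and ITGA11, which also bind collagen, stayed at 0.511 and 0.0649 CPM. ITGA5, the alpha chain of the fibronectin receptor, had 12 counts in all libraries together. ITGB2, a beta chain best known from leukocytes, averaged 18.4 CPM, whereas its leukocyte alpha partners ITGAL, ITGAM and ITGAX had medians of 1.1, 0 and 0 CPM, and PTPRC had 1 count.

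Class totals were lower with Sorafenib at 24 h in most classes. They are given as a description, with no test. The collagen total was 439.1 ± 4.41 CPM in IC DMSO and 492.2 ± 24.5 CPM in IC Sorafenib (SD, n = 3, as for all group means below), and 504.2 ± 49.9 and 529.3 ± 17.5 CPM in I200c. At 24 h it was 536.2 ± 64.9 CPM in MC DMSO against 415.6 ± 28.7 CPM in MC Sorafenib, 508.8 ± 35.2 against 376.4 ± 15 CPM in M222, and 453.8 ± 39.4 against 360 ± 23.9 CPM in M512. Within each 24 h transfection all 3 Sorafenib libraries lay below all 3 DMSO libraries. At 6 h none of the collagen totals was lower in that way, and in IC all 3 Sorafenib libraries lay above all 3 DMSO libraries. COL27A1, the highest collagen, weighs most in these totals, so they do not describe every collagen. Of the 12 collagens tested at 24 h, 9 were negative in MC, 6 in M222 (median log2 fold change −0.02) and 9 in M512.

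The laminin total at 6 h was 372.3 ± 56.7 CPM in DMSO against 372.7 ± 23.1 CPM in Sorafenib in IC and 356.1 ± 21.3 against 394.5 ± 26.6 CPM in I200c. At 24 h it was 403.7 ± 21.9 against 341.7 ± 24.9 CPM in MC, 349.3 ± 42.6 against 306.1 ± 43.2 CPM in M222 and 376.7 ± 26 against 292.6 ± 40.7 CPM in M512, and in M222 the libraries of both treatments overlapped. The integrin total moved otherwise. At 6 h it was 428.7 ± 10.8 against 386.3 ± 33.6 CPM in IC and 456.2 ± 25.3 against 395.1 ± 14.3 CPM in I200c, lower without overlap in both. At 24 h it was 448.2 ± 5.35 against 330.1 ± 12.1 CPM in M512, also without overlap. It was 340.5 ± 21.8 against 331.6 ± 39.4 CPM in MC and 297.6 ± 52.9 against 284.4 ± 36.5 CPM in M222, both with overlap. Lysyl oxidases had the lowest total, 16.1 ± 3.96 against 6.03 ± 3.32 CPM in M512. It was 10.8 ± 3.82 against 8.68 ± 2.26 CPM in MC and 14.03 ± 1.06 against 10.03 ± 6.27 CPM in M222, both with overlap. LOX made up most of the M512 DMSO total. Of the 4 lysyl oxidases tested, 3 were negative with Sorafenib in M512, and LOXL4, the highest of the class, was positive. The summed hepatocyte markers were also lower with Sorafenib at 24 h (7 of 13 called lower when the 24 h transfections were averaged; 16010 against 11460 CPM in MC, 14020 against 10190 CPM in M222 and 18930 against 11820 CPM in M512) and were similar at 6 h (13370 against 13520 CPM in IC), and their part in the result was not tested.

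Sorafenib was compared with DMSO within each transfection by edgeR's quasi-likelihood F test across all genes, with Benjamini-Hochberg adjustment and a call at an adjusted p under 0.05. Of the 80 genes, 26 passed the filter on low counts at 6 h and 27 at 24 h, 28 in either. After 6 h in IC none of the 26 was called, beside 0.0393% of all genes tested. There 1 had an unadjusted p under 0.05 (ITGA2; 3.85%, beside 3.78% of all genes), and DESeq2 also called none. In I200c 1 of 26 was called, ITGA2, beside 2.28% of all genes. After 24 h in MC none of the 27 was called, beside 2.6% of all genes. There 4 had an unadjusted p under 0.05 (14.8%, beside 16.9% of all genes), and DESeq2 called COL27A1. In M222 1 of 27 was called (COL27A1), beside 4.38%, and in M512 3 of 27 (ITGA2, ITGB2 and LOX), beside 9.96%. All calls were lower with Sorafenib, and the shares of called members were near those of all genes.

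**Figure D2:**
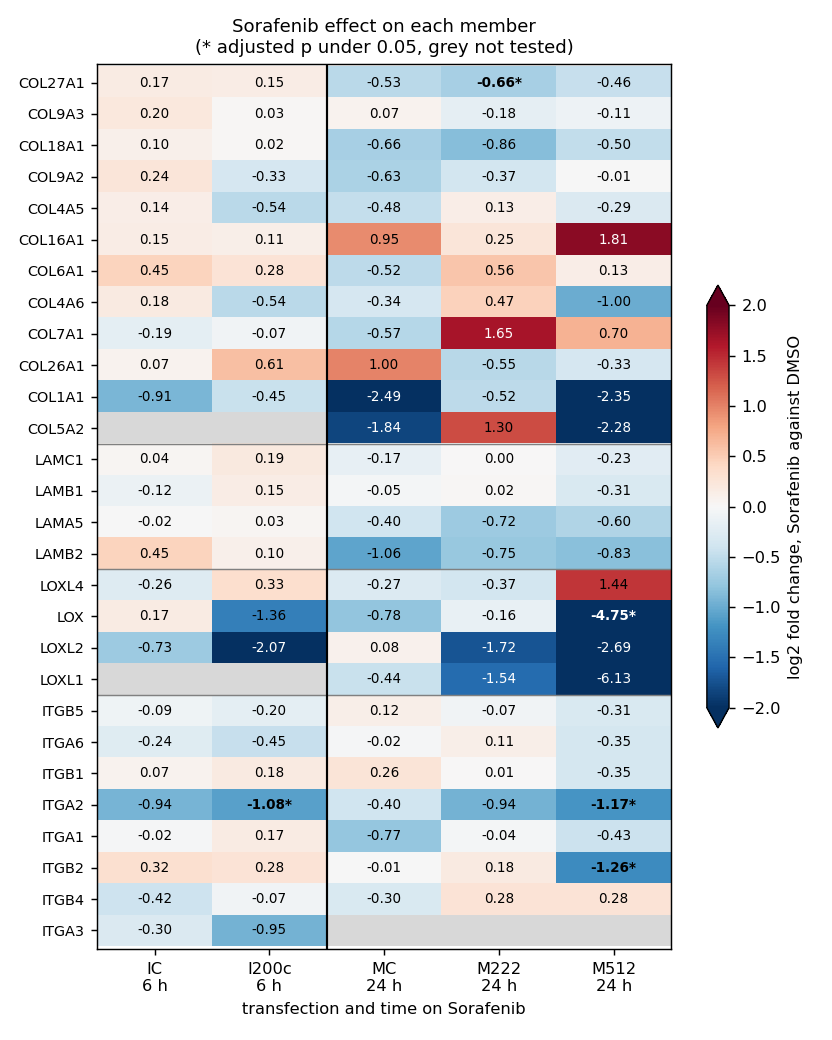
Fitted log2 fold change of Sorafenib against DMSO for each tested gene (rows, by class) in each transfection (columns), with an asterisk where the adjusted p was under 0.05, grey where the gene was not tested and the colour scale ending at 2 in either direction. ITGA2 is negative in all 5 columns, COL27A1, COL18A1 and LAMB2 are positive at 6 h and negative at 24 h, and the large values of COL1A1, COL5A2 and the lysyl oxidases come from genes with few counts.

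ITGA2 (ENSG00000164171, chromosome 5, 52989340 to 53094779, GRCh38) was lower with Sorafenib in every transfection. Its alpha chain pairs with ITGB1 in a receptor for collagen and laminin. In I200c the DMSO libraries held 42.8, 40.4 and 59.3 CPM and the Sorafenib libraries 22.9, 23.5 and 21.2 CPM, with no overlap between the groups. The log2 fold change was −1.085 (SE 0.233, edgeR adjusted p = 0.0157). In IC the libraries held 53.2, 43.2 and 48.5 CPM against 26.8, 33.9 and 15.5 CPM, also without overlap, and the log2 fold change of −0.94 did not pass (adjusted p = 0.264). The difference between both effects was −0.15 on the log2 scale (interaction, adjusted p = 1), so the call in I200c does not set it apart from IC.

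At 24 h ITGA2 started from a lower level in MC and M222 than in M512. The M512 libraries held 34.1, 47.05 and 50.6 CPM in DMSO and 17.9, 15.4 and 24.9 CPM in Sorafenib, with a log2 fold change of −1.17 (SE 0.339, adjusted p = 0.0278). In M222 the values were 27.5, 24.6 and 32.3 CPM against 5.96, 22.5 and 16.4 CPM (log2 fold change −0.94, adjusted p = 0.125), and in MC 33.2, 32.4 and 22.3 CPM against 22.8, 25.9 and 17.6 CPM (−0.40, adjusted p = 0.586). Groups did not overlap in M512 and M222 and overlapped in MC. Without 1 library the call in I200c was lost in 3 of 6 fits (without DMSO replicate 3, Sorafenib replicate 1 or Sorafenib replicate 2, adjusted p up to 0.0752) and the call in M512 in 4 of 6 (without DMSO replicate 2 or 3 or Sorafenib replicate 1 or 2, up to 0.119), while the direction held in all of them. ITGB1, its partner, showed no such pattern: it was 72.4 ± 17.4 against 76.6 ± 11.1 CPM in IC, and its log2 fold changes ran from −0.35 in M512 to 0.26 in MC.

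COL27A1 (ENSG00000196739, chromosome 9, 114155537 to 114312511, GRCh38) was called in M222 at 24 h. Its libraries there held 252.9, 253.8 and 272.2 CPM in DMSO and 160.8, 197.3 and 136.5 CPM in Sorafenib, with no overlap (log2 fold change −0.66, SE 0.182, adjusted p = 0.0358). In MC they held 275.5, 263.7 and 339.1 CPM against 199.1, 223.3 and 183.2 CPM (−0.53, adjusted p = 0.116), and in M512 260.7, 232.6 and 206 CPM against 142.5, 185 and 179.5 CPM (−0.46, adjusted p = 0.108). All 3 transfections thus placed every Sorafenib library below every DMSO library. At 6 h the order was the opposite, with 236.6, 236.7 and 215.8 CPM against 258.8, 250.6 and 266.7 CPM in IC and a log2 fold change of 0.17 (adjusted p = 1). In I200c it was 0.15 (adjusted p = 0.604). Leaving out any library of M222 other than Sorafenib replicate 2 ended the call there, in 5 of 6 fits (adjusted p up to 0.24), and it was also lost when the M222 libraries were fitted alone (0.0574) and with no filter on low counts (0.0615), where COL18A1 was called in its place (0.0317).

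LOX (ENSG00000113083, chromosome 5, 122063195 to 122078413, GRCh38), the founding enzyme of its family, showed the largest called change. In M512 the DMSO libraries held 9.46, 8.98 and 10.5 CPM (76, 59 and 74 counts) and the Sorafenib libraries 0.193, 0 and 0.747 CPM (1, 0 and 6 counts). The fitted log2 fold change was −4.75 (SE 1.32, adjusted p = 0.0219), and its size rests on those few counts. At 24 h LOX passed the filter on low counts through the M512 DMSO libraries, where it was high, so that its call there is a description. No other group came near the level of M512 DMSO: the highest library elsewhere was I200c DMSO replicate 1 at 5.82 CPM, and at 24 h it was M222 DMSO replicate 3 at 2.43 CPM. In MC the libraries held 0.891, 0.737 and 0.145 CPM against 0, 0.597 and 0.4405 CPM, with overlap. Leaving out 1 library ended the call in 5 of 6 fits, all but that without Sorafenib replicate 3 (adjusted p up to 0.0803).

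ITGB2 (ENSG00000160255, chromosome 21, 44885953 to 44931989, GRCh38) was called in M512 with 28, 32.9 and 32 CPM in DMSO and 5.2, 18.3 and 15.2 CPM in Sorafenib (log2 fold change −1.26, SE 0.352, adjusted p = 0.0226). The groups did not overlap. In the other transfections the log2 fold changes were −0.01 (MC), 0.18 (M222), 0.32 (IC) and 0.28 (I200c), with adjusted p of 0.718 or more. The interaction of M512 with Sorafenib was −1.25 (adjusted p = 0.916), so a difference from MC was not shown. The call was lost without M512 DMSO replicate 2 (0.083), DMSO replicate 3 (0.0774) or Sorafenib replicate 1 (0.121), and with the M512 libraries fitted alone (0.0622).

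**Figure D3:**
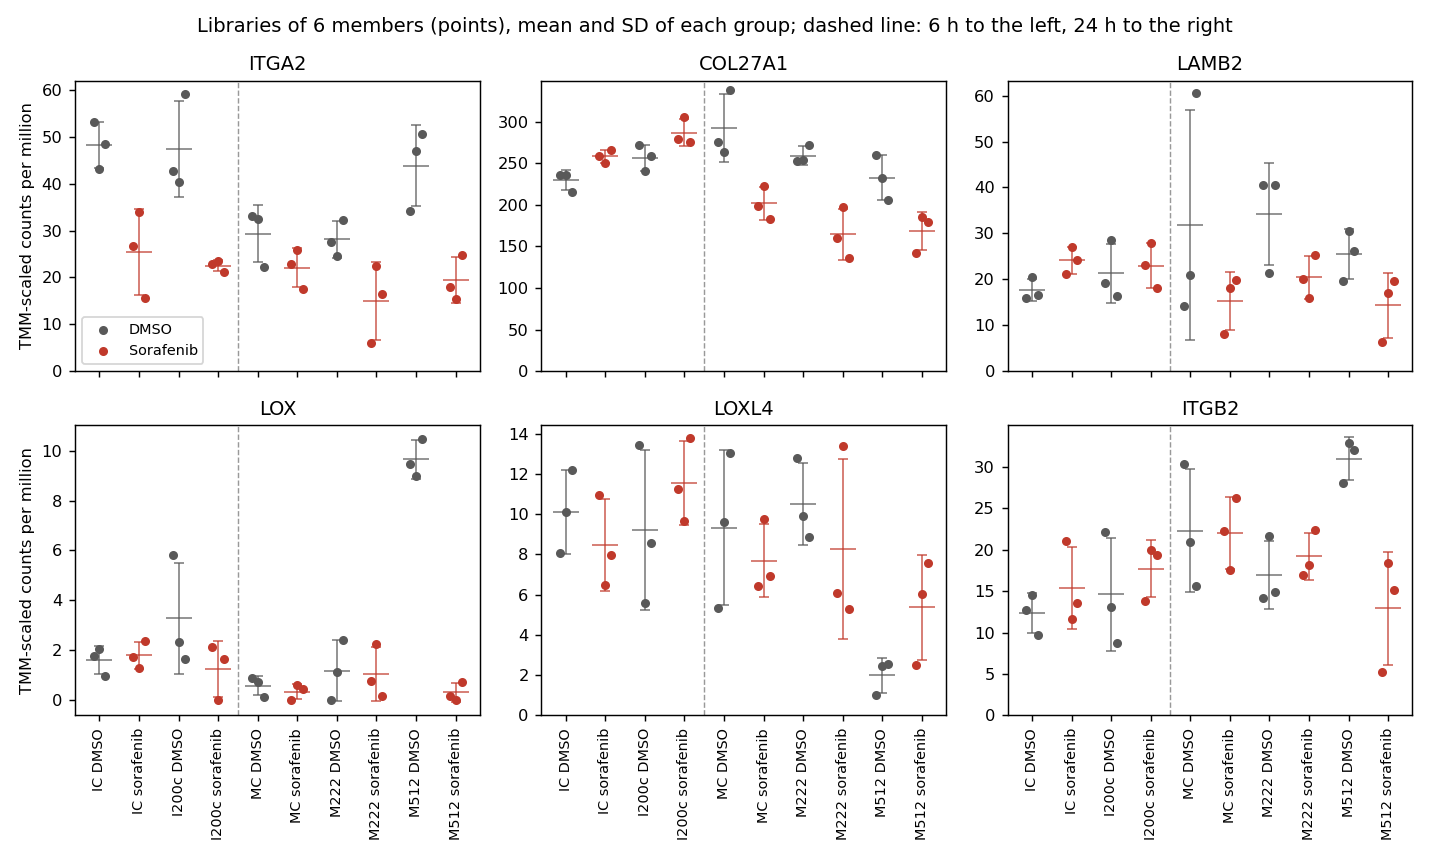
CPM of 6 genes in every library (points), with the mean and SD of each group of 3 and the 6 h groups to the left of the dashed line. ITGA2 is lower in the Sorafenib groups at both times, COL27A1 and LAMB2 have lower Sorafenib means at 24 h, and LOX stands at 8.98 to 10.5 CPM in M512 DMSO alone.

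None of the interactions of an oligonucleotide with Sorafenib called a member of the 4 classes in edgeR or DESeq2. At an unadjusted p under 0.05 the counts were 0 of 26 for I200c, 0 of 27 for M222 and 3 of 27 (11.1%) for M512. The shares of all genes were 3.24%, 1.96% and 5.04%. Over all genes edgeR called 1 gene for M512 (0.00755%) and none for the other 2. With 3 libraries per group, a lack of such calls does not show that the effects were alike. The 5 transfections were also averaged within each experiment, a contrast added after the data had been seen.

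Averaged over MC, M222 and M512 at 24 h, 6 of 27 genes were called, 5 lower and 1 higher, beside 25.8% of all genes, so their share was near that of the table as a whole. The direction of the 27 was more uneven, with 21 negative values (77.8%) and a median log2 fold change of −0.29, beside 52.6% and −0.04 for all genes. By transfection 77.8% were negative in MC and 81.5% in M512, but 55.6% in M222 (median −0.07), where 52.2% of all genes were. When libraries were scaled by their total counts, the median over all genes itself moved to −0.17, the share of higher calls among all called genes went from 52.1% to 32.8%, and the 8 called members were all lower.

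COL27A1 fell by 0.55 on the log2 scale (SE 0.105, adjusted p = 0.000378), and ITGA2 fell by 0.84 (SE 0.197, adjusted p = 0.00267). COL18A1 (ENSG00000182871, chromosome 21, 45405165 to 45513720, GRCh38) fell by 0.67 (SE 0.167, adjusted p = 0.00435), from 68 ± 14.4 to 37.8 ± 9.09 CPM in M222, for example. These 3 calls held in all 18 fits without 1 library. Among the genes tested, the 3′ end of COL18A1 faces an exon of SLC19A1 on the other strand, that of LAMA5 an exon of ADRM1 and that of COL9A3 an exon of TCFL5. The strand setting of the counting is not stated, so whether reads of these pairs were kept apart is not known. Of these 3, COL27A1 and ITGA2 had also reached the threshold within single transfections.

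The basement membrane laminins followed. LAMA5 (ENSG00000130702, chromosome 20, 62307955 to 62367312, GRCh38), the alpha chain of the adult basement membrane laminins, fell by 0.57 (SE 0.168, adjusted p = 0.0135). Its 3 DMSO groups averaged 89.3 ± 6.22, 81.1 ± 12.1 and 83.8 ± 6.07 CPM (MC, M222 and M512) and its Sorafenib groups 67.6 ± 13.7, 49.6 ± 15.7 and 55.3 ± 34.7 CPM. Sorafenib replicate 3 of M512 stood apart at 95.2 CPM, beside 37.6 and 33 CPM in its group. LAMB2 (ENSG00000172037, chromosome 3, 49121114 to 49133118, GRCh38), a beta chain of vessel and kidney basement membranes, fell by 0.88 (SE 0.26, adjusted p = 0.0143). MC DMSO replicate 3 held 60.5 CPM beside 14.1 and 20.9 CPM in its group, and without it the value was −0.58 and the call was lost (adjusted p = 0.0728). LAMB1 and LAMC1, the other chains of the set, had log2 fold changes of −0.11 (adjusted p = 0.671) and −0.13 (adjusted p = 0.397).

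COL16A1, a collagen that lies at the surface of collagen fibrils, was the only called gene that rose (log2 fold change 1.00, SE 0.341, adjusted p = 0.0325). It went from 4.11, 2.89 and 3.97 CPM to 18.9, 6.44 and 13.1 CPM in M512 and from 9.92, 5.65 and 1.88 CPM to 10.8, 10.35 and 12.6 CPM in MC, where all Sorafenib libraries lay above all DMSO libraries, and in M222 the libraries overlapped. In 7 of the 18 leave-one-out fits COL16A1 was no longer called (with the highest adjusted p, 0.138, without M222 Sorafenib replicate 3; the others were those without MC DMSO replicate 3, MC Sorafenib replicate 3, M222 DMSO replicate 2 or 3, M512 DMSO replicate 2 or M512 Sorafenib replicate 1), and under total counts (0.0638). Within M512 alone its log2 fold change was 1.81 (adjusted p = 0.0571), and it was called there with no filter on low counts (0.0173), by DESeq2 (0.0266) and with the M512 libraries fitted alone (0.033). LOX and COL1A1 came next with log2 fold changes of −1.90 (adjusted p = 0.0581) and −1.79 (adjusted p = 0.0807). The value of LOX is a description, since it passed the filter through the M512 DMSO libraries. The integrins other than ITGA2 did not pass, from −0.41 for ITGA1 to 0.08 for ITGB4.

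Averaged over IC and I200c at 6 h, 1 of 26 genes was called, beside 2.89% of all genes. It was ITGA2, which fell by 1.01 (SE 0.167, adjusted p = 0.0013) and kept its call in all 12 fits without 1 library. Of the 26, 12 were negative (46.2%), beside 49.4% of all genes. That count was 15 of 26 when libraries were scaled by their total counts, and it ran from 12 of 28 to 17 of 28 in the fits without 1 library.

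**Figure D4:**
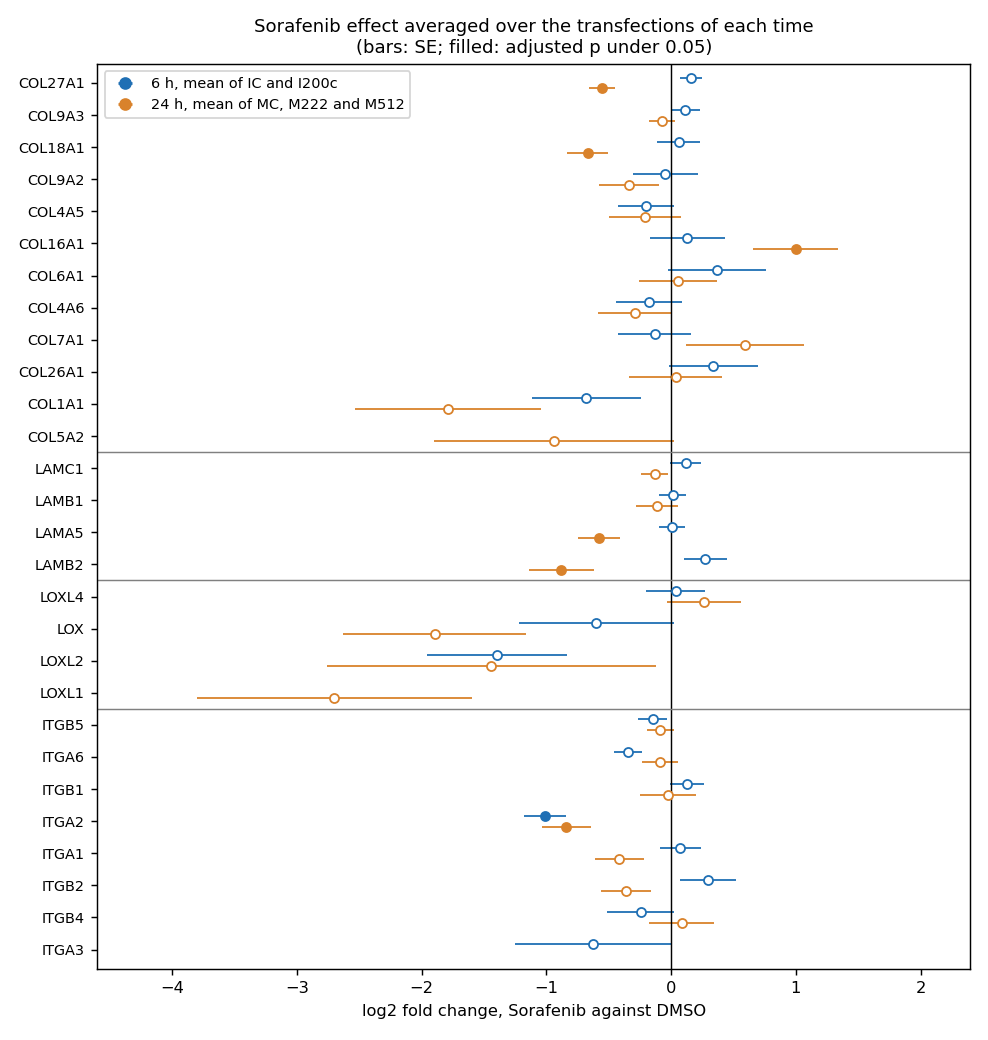
Averaged log2 fold change of Sorafenib against DMSO at 6 h (blue) and at 24 h (orange) for each tested gene, with SE bars and filled points where the adjusted p was under 0.05. At 24 h COL27A1, COL18A1, LAMA5, LAMB2 and ITGA2 are called lower and COL16A1 higher, and at 6 h ITGA2 alone is called.

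The difference between the averaged effects, 24 h minus 6 h, was tested in 1 fit of all 30 libraries, also added after the data had been seen. It called 3 of 29 genes, beside 9.4% of all genes. COL27A1 had a difference of −0.71 (SE 0.142, adjusted p = 0.00107), which held in all 30 fits without 1 library. LAMB2 had a difference of −1.15 (SE 0.366, adjusted p = 0.0413), lost in 12 of the 30 (adjusted p up to 0.0865). COL4A2 was called too, but it had passed the filter only in the joint fit, with 115 counts in all and 0 counts in all libraries of M222 DMSO and M512 DMSO, so no fold is given for it. For COL18A1 and LAMA5 the difference did not pass (−0.73, adjusted p = 0.076, and −0.58, adjusted p = 0.1), and for ITGA2 it was 0.17 (adjusted p = 0.77). Whether such a difference goes with time or with the transfected oligonucleotide cannot be told apart here.

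The oligonucleotides were examined next. A microRNA represses messengers that carry, in the 3′ untranslated region (UTR), the complement of its seed, bases 2 to 8 counted from its 5′ end. The mature sequences are shown because they define the sites searched, with the seed in capitals, as RefSeq gives them on GRCh38.p14:
miR-200c-3p: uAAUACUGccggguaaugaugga
miR-222-5p: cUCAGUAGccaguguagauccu
miR-512-3p: aAGUGCUGucauagcugagguc

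The site searched on the messenger strand was thus CAGTATT for miR-200c-3p. For miR-222-5p it was CTACTGA, and for miR-512-3p the letters were CAGCACT. None of these contains another. Of the 26 genes tested at 6 h, 5 carried the miR-200c-3p site in the GENCODE 44 UTR (19.2%, beside 19.3% of all genes tested): COL9A2, ITGA1, ITGA2, LAMC1 and LOX. Of the 27 tested at 24 h, 2 carried the miR-222-5p site, COL4A5 and ITGA6 (7.4%, beside 10.5%), and 3 the miR-512-3p site, COL18A1, COL6A1 and ITGA1 (11.1%, beside 23%). A match is a description of the sequence and not a proven target. Among the tested genes LOX had the most sites, and its 3 matches are shown with the site in capitals (messenger strand, chromosome 5, minus strand, GRCh38), followed by the sites of ITGA2 and LAMC1 (which has 2) for miR-200c-3p, of ITGA6 for miR-222-5p and of ITGA1 and COL18A1 for miR-512-3p:
LOX, chr5:122066412-122066418: caaaatggtCAGTATTatctaaat
LOX, chr5:122065356-122065362: tatattaacCAGTATTaaaatctc
LOX, chr5:122064933-122064939: aactactgtCAGTATTaatactga
ITGA2, chr5:53093594-53093600, plus strand: cctggggggCAGTATTtctcaagc
LAMC1, chr1:183143954-183143960, plus strand: acttgcactCAGTATTtcacacag
LAMC1, chr1:183145549-183145555, plus strand: taagaaaaaCAGTATTttatttat
ITGA6, chr2:172505379-172505385, plus strand: agtataagaCTACTGAatctgcta
ITGA1, chr5:52952870-52952876, plus strand: catgacagtCAGCACTcgtaaatg
COL18A1, chr21:45513230-45513236, plus strand: tggctcagcCAGCACTtgtccagc

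The inhibitor of miR-200c-3p against its control called none of the 26 genes in DMSO (edgeR and DESeq2), beside 0.0157% of all genes. There 1 had an unadjusted p under 0.05 (3.85%, beside 5.24% of all genes). None was called in Sorafenib, where no gene of the table was called. The 5 genes with a site had a median log2 fold change of 0.125 in DMSO and 0.145 in Sorafenib, and the 21 without had 0.06 and 0.01. LOX, with its 3 sites, held 1.77, 2.07 and 0.975 CPM in IC DMSO and 5.82, 2.35 and 1.67 CPM in I200c DMSO, which overlap (log2 fold change 1.02, adjusted p = 0.962). ITGA2 differed by −0.01 between both transfections in DMSO (adjusted p = 0.998).

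The mimics of 24 h share the MC libraries as control, so their values are given side by side. M222 against MC called none of the 27 genes in DMSO or in Sorafenib, and no gene of the whole table, in edgeR. In DMSO 4 of the 27 had an unadjusted p under 0.05 (14.8%, beside 5.56% of all genes). In Sorafenib 0 of the 27 did (beside 6.04%). DESeq2 called none of the 27. ITGA6, which carries the site of miR-222-5p, held 81.8, 87.2 and 58.5 CPM in MC DMSO and 41.5, 64.3 and 45.6 CPM in M222 DMSO, with overlap (log2 fold change −0.60, adjusted p = 0.823). COL4A5, the other gene with the site, differed by −0.51 (adjusted p = 0.969). ITGA1 was below MC in every M222 library (34, 29 and 34 CPM against 20.5, 19.2 and 10.4 CPM; log2 fold change −0.96, adjusted p = 0.649) without a site for miR-222-5p. Groups in DMSO also did not overlap for LOXL2 (log2 fold change 4.30, adjusted p = 0.891) and COL5A2 (−3.64, adjusted p = 0.889), both with few counts. The same held for COL9A3 (0.28, adjusted p = 0.948).

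M512 against MC in DMSO called 84 genes of the table (0.634%) and none of the 27 in edgeR, although 7 of them (25.9%) had an unadjusted p under 0.05, beside 10.5% of all genes. DESeq2 called LOX and LOXL4. LOX, among those 7, passed the filter on low counts through the M512 DMSO libraries, where it was high. Its values and its DESeq2 call here are therefore a description. The largest differences were those of lysyl oxidases, which did not pass in edgeR. LOXL4 (ENSG00000138131, chromosome 10, 98247690 to 98268194, GRCh38) held 5.34, 9.585 and 13.02 CPM in MC DMSO and 0.996, 2.44 and 2.55 CPM in M512 DMSO, without overlap (log2 fold change −2.23, SE 0.543, adjusted p = 0.0567; 0.0366 with the replicate number as a block). LOX held 0.891, 0.737 and 0.145 CPM against 9.46, 8.98 and 10.5 CPM, again without overlap (log2 fold change 3.98, SE 1.26, adjusted p = 0.184). These M512 DMSO libraries also enter the Sorafenib comparison above, so the fall of LOX there and its level here are not separate observations. Neither UTR held the site of miR-512-3p.

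COL1A1 was also high in M512 DMSO, at 7.72, 11.7 and 10.3 CPM against 0, 4.18 and 4.05 CPM in MC DMSO, with a log2 fold change of 1.86 (adjusted p = 0.65). LOXL1 had 9, 9 and 11 counts in M512 DMSO and 0 counts in each M512 Sorafenib library (adjusted p = 0.0993 for Sorafenib); it was 1, 1 and 10 counts in MC DMSO. Among the integrins ITGB1 held 24.6, 56.5 and 31.8 CPM in MC DMSO and 66.8, 77.7 and 56.8 CPM in M512 DMSO (log2 fold change 0.83, adjusted p = 0.456), and ITGA6 and ITGA2 differed by 0.65 and 0.57 (adjusted p = 0.312 and 0.591). ITGA1, with 1 site for miR-512-3p, was lower in every M512 library, at 16.4, 18.4 and 16.6 CPM (log2 fold change −0.93, adjusted p = 0.263). The 3 genes with the site had a median log2 fold change of −0.61 and the 24 without it −0.04. Under Sorafenib the order was reversed, with 0.04 for the 3 genes (1 negative) and −0.21 for the 24.

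**Figure D5:**
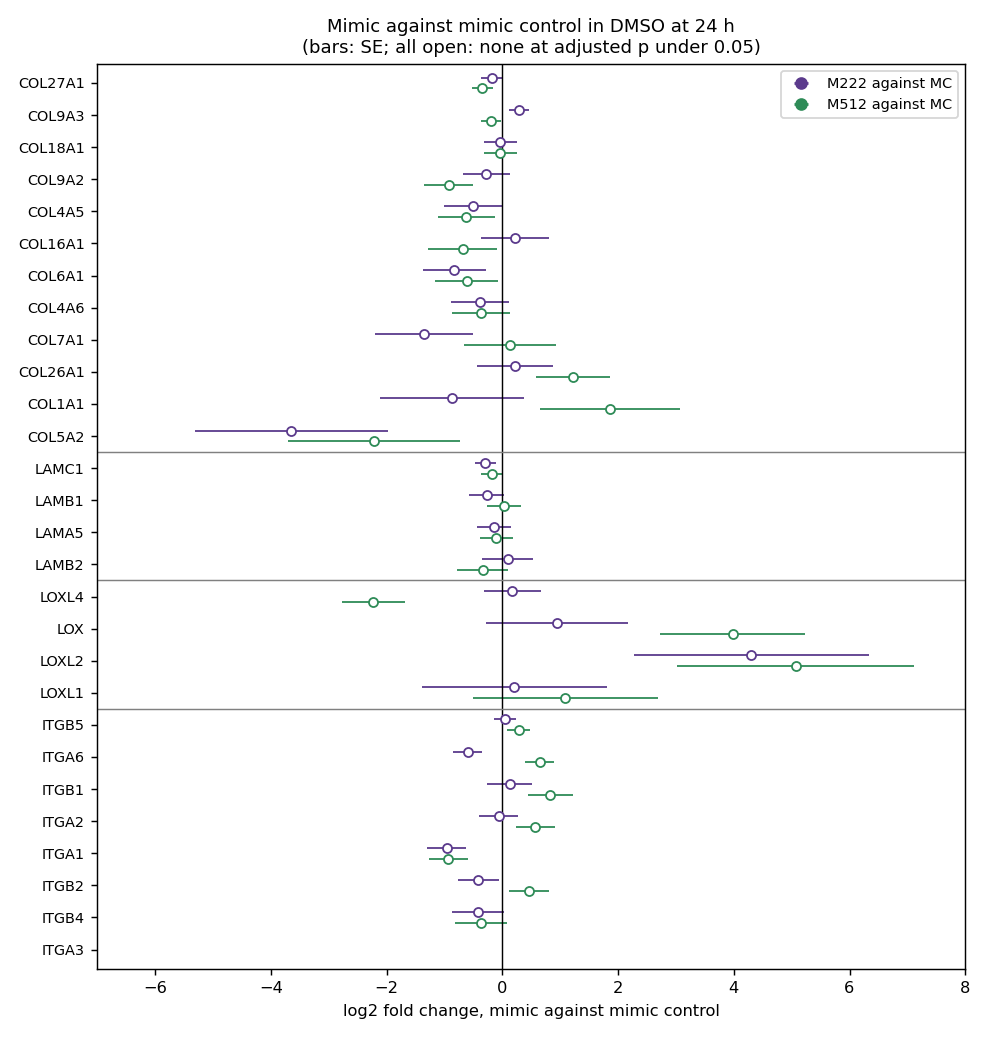
Log2 fold change of M222 (purple) and M512 (green) against MC in DMSO at 24 h for each gene tested there, with SE bars. Every point is open because no adjusted p was under 0.05, LOXL4 (−2.23) and LOX (3.98) lie far from 0 on opposite sides for M512, and the widest bars belong to genes with few counts such as LOXL1, LOXL2 and COL5A2.

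Under Sorafenib, M512 against MC called 47 genes of the table (0.355%) and none of the 27 (none by DESeq2 either). Of the 27, 2 had an unadjusted p under 0.05 (7.41%, beside 11.1% of all genes). LOXL4 held 6.43, 9.75 and 6.9 CPM in MC Sorafenib and 2.5, 6.05 and 7.59 CPM in M512 Sorafenib, which overlap (log2 fold change −0.52, adjusted p = 0.767), and LOX differed by 0.02 (adjusted p = 0.999). COL9A3 and COL7A1 were named by the rule for groups that did not overlap, and the share of all genes that did so was not counted. COL9A3 held 108.7, 124.6 and 109.2 CPM in MC against 98.6, 75.3 and 92.75 CPM in M512 (log2 fold change −0.38, adjusted p = 0.426), and COL7A1 held 2.235, 1.19 and 5.43 CPM against 7.51, 9.76 and 6.72 CPM (log2 fold change 1.4, adjusted p = 0.55).

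The machinery around these proteins was examined through lists of genes. In the averaged 24 h contrast, which is used for them unless stated, 25.8% of all genes were called and 52.6% were negative, and at 6 h 2.89% were called. Among enzymes and chaperones of collagen making, 20 of 26 were tested at 24 h, and in the averaged contrast 3 were called lower and none higher (3 of 20, beside 25.8% of all genes; median of the list −0.09). P4HA1, a prolyl hydroxylase subunit that stabilises the collagen helix, fell by 0.74 (adjusted p = 0.000464), and P3H4, a partner of the lysyl hydroxylase complex, fell by 1.02 (adjusted p = 0.00199). At 6 h 1 of 19 was called, PLOD1, a lysyl hydroxylase, which rose by 0.48 on the log2 scale (adjusted p = 0.0174). In M512 at 24 h P4HA1 went from 162.7 to 60.5 CPM in group means (adjusted p = 0.000619).

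Basement membrane and other matrix partners had 14 of 15 tested genes negative (93.3%, beside 52.6% of all genes) and a median of −0.28. Only 3 of the 15 were called (beside 25.8%), and they were lower: HSPG2 (perlecan) fell by 0.80 (adjusted p = 0.000538), NID1 (nidogen, which joins laminin to collagen IV) fell by 0.62 (adjusted p = 0.0342), and DAG1 (dystroglycan, a laminin receptor) fell by 0.38 (adjusted p = 0.0191). At 6 h the called genes were THBS1 and MATN3, both lower, with log2 fold changes of −0.83 and −0.69 (adjusted p = 0.00729 and 0.0459).

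Of 36 integrin adhesion adaptors, 33 were tested at 24 h, with 3 called higher and 4 lower (7 of 33, beside 25.8% of all genes). TNS4, a tensin that binds integrin tails, had the largest fall (3.14 on the log2 scale, adjusted p = 0.00628) and was lower at 6 h as well, where it fell by 1.72 (adjusted p = 0.00095). FERMT2 and ZYX, which act at focal adhesions, rose by 0.55 (adjusted p = 0.00216) and 0.51 (adjusted p = 0.0143). FERMT2 was also the only gene of the matrix and adhesion lists called between M512 and MC in DMSO, where some genes of the cell type marker lists were called too, with a log2 fold change of 0.98 (adjusted p = 0.0356). None of the 4 tested integrin chains outside the rule was called at 24 h, and none of the 3 tested at 6 h. ITGAV averaged 32.8 CPM in MC DMSO and 32.4 CPM in MC Sorafenib.

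Matrix proteases and inhibitors split, with 2 of 10 called higher and 2 lower at 24 h. CTSB, a lysosomal protease, fell by 0.61 (adjusted p = 8.39e-05) at 24 h, and the proteases and inhibitors called higher are not named here. Of the other collagen and laminin receptors, 7 were tested at 24 h, and DDR1, a collagen receptor kinase, rose by 0.67 (adjusted p = 0.000439), SDC4 rose by 0.59 (adjusted p = 0.000469) and SDC1 fell by 0.38 (adjusted p = 0.0341). Among 20 regulators of matrix genes in the TGF-beta and YAP pathways, 5 were called higher and 2 lower at 24 h. CCN1, a matrix protein induced by YAP, rose by 3.04 (adjusted p = 6.39e-07), SMAD7, the feedback inhibitor of TGF-beta signalling, rose by 2.38 (adjusted p = 3.41e-07), and TGFBR2, a TGF-beta receptor, fell by 0.92 (adjusted p = 0.000306). CCN2, of the same list, had similar group means in DMSO and Sorafenib. They were 83.8 and 91.9 CPM in MC, 121.9 and 120.2 CPM in M222 and 76.4 and 76.6 CPM in M512. At 6 h SMAD7 rose by 1.44 (adjusted p = 1.97e-05) and ANKRD1, a YAP target, fell by 0.90 (adjusted p = 0.000184).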

How the data were processed

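QuantSeq 3′ FWD libraries of 30 HepG2 samples were analysed. Per the labels and the study's methods, the authors made FASTQ files with DRAGEN, trimmed them, aligned them to GRCh38 with STAR and counted them per gene with HTSeq, and they deposited raw counts. Versions of the aligner and the counter, the annotation release, the strand setting and the use of molecular identifiers are not given in the sources used here. Of the lines, 92 named no gene and were left out. A deposited table of normalised values was not used.

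Symbols and positions came from GENCODE 44 (56104 of 60107 identifiers matched). Members and gene lists were chosen with earlier results of these data known. Counts were fitted in R 4.3.3 with edgeR 4.0.16 (limma 3.58.1), by a two-sided quasi-likelihood F test with TMM scaling, filterByExpr (minimum count 10) and Benjamini-Hochberg adjustment over all genes tested. The 12 libraries of 6 h (12738 genes) and the 18 of 24 h (13244 genes) were fitted apart, with 1 coefficient per group. The averaged contrasts and their difference (30 libraries, 13800 genes) were added after the data had been seen. SEs were derived from the F statistic (absolute log2 fold change over its square root). Genes were named by call, by level (3 highest per class), and by the largest change in either direction with groups that did not overlap. Not every gene and comparison that met this rule is given with its values. In the lists, genes were named from the called genes of largest change in either direction, and not every such gene is given. Other genes named with values, partner chains and DAG1 among them, were chosen after their values were seen. Seed sites were searched on the messenger strand of the annotated UTR of each gene.

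Replicates of a group differed by more than sampling noise in all pairs (chi-square per degree of freedom of 4.54 to 66.2), with correlations of 0.944 to 0.985. Same-numbered libraries of the groups compared correlated at −0.14 to 0.28, and all 3 numbers passed 0.1 in 1 of 11 comparisons (M222 against MC in DMSO), so the numbers were not used as a block. In simulated counts at log2 fold changes of 1 and 2 the test recovered 49% and 75% of changed genes for Sorafenib in I200c (12419 genes) and 18.4% and 65.7% for Sorafenib in M512 (12859 genes), with 4 false calls in each. Alternatives were other scalings, no filter, DESeq2 1.42.0, the replicate block, only the libraries compared, and leaving out each library. Single values of some genes that the counts include are not reported here.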

Additional observations from a re-analysis of the deposited data

Results flagged for a closer look

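COL27A1 and LAMB2 were flagged because their Sorafenib effect differed between the 6 h and the 24 h experiment. The averaged effect of COL27A1 at 24 h minus that at 6 h was −0.71 (edgeR adjusted p = 0.00107), and that of LAMB2 was −1.15 (adjusted p = 0.0413, lost in 12 of 30 fits without 1 library). For COL27A1 every Sorafenib library lay above every DMSO library in IC (log2 fold change 0.17) and I200c (0.15) and below it in MC (−0.53), M222 (−0.66) and M512 (−0.46). For LAMB2 the same opposite order was seen between IC (0.45) and M512 (−0.83). The differences between these single pairs were not tested. Time and the class of oligonucleotide cannot be told apart in this design.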

How the results depend on the processing

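None of the single-gene fold changes followed changed sign under the alternatives tried. Medians over the tested members that lay near 0 did: that of the averaged 6 h contrast went from 0.01 to −0.02 under total counts and −0.125 without the filter, that of Sorafenib in I200c from 0.02 to −0.168 without I200c DMSO replicate 3, that of the M222 interaction from 0.132 to −0.068 without M222 Sorafenib replicate 2, and smaller shifts turned those of Sorafenib in IC, of I200c against IC in Sorafenib and of M222 against MC in Sorafenib. Of 340 alternative values for counts of called members and class totals 305 stayed within their limits, and of 606 for single genes 532 kept their side of the threshold, 61 lost it and 13 gained it. Without the filter on low counts 1 member was called for Sorafenib in IC (ITGA2) and 2 for M512 against MC in DMSO (LOX and LOXL4). DESeq2 called 1 for Sorafenib in MC (COL27A1) and 2 for M512 against MC in DMSO (LOX and LOXL4). With only the libraries compared, the counts were 0 for Sorafenib in M222 and 1 for M512 against MC in DMSO (LOX). With the replicate block, M512 against MC in DMSO called 1 (LOXL4, adjusted p = 0.0366) and the averaged 24 h contrast 7 in place of 6 (COL1A1 added), and no other count of called members changed. The numbers share no stated source. Under total counts the collagen totals of IC DMSO, M222 Sorafenib and M512 Sorafenib were 454.7, 357.3 and 320.9 CPM and the integrin totals of IC DMSO, M512 DMSO and M512 Sorafenib 443.9, 455.1 and 294.4 CPM. Leaving out 1 library gave 0 to 1 called members for Sorafenib in I200c, 0 to 2 in M222, 0 to 4 in M512, 4 to 8 in the averaged 24 h contrast and 1 to 5 for the difference between times. For these changes the cause was not tested. A count of 0 allows up to 0.762 CPM in the shallowest library, so members below 1 CPM were mostly not tested (COL5A2 and LOXL1 were, at 24 h).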
